A study of Mus musculus with 6 samples.

Results

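Of the 24062 genes in the count table, 45 belong to MHC class I antigen presentation and a small set of immune ligands, and their RNA was compared between mouse embryonic fibroblasts that overexpressed p27 and their controls. The genes were chosen by symbol: every H2-K1, H2-D1, H2-Q, H2-T and H2-M heavy chain gene (29 genes), and 16 others, namely B2m, Tap1, Tap2, Tapbp, Psmb8, Psmb9, Psmb10, Psme1, Psme2, Erap1, Nlrc5, Cd274, Ulbp1, Raet1d, Raet1e and H60b. Of these 45, 25 had enough counts to be tested. The fibroblasts, primary connective tissue cells from embryos, were of the C57BL/6 strain. One group, p27 OE, carried a lentivirus that overexpresses p27, a brake on cyclin-dependent kinases whose gene is Cdkn1b, and the other group, EV control, is given by an abbreviation that the labels do not spell out. RNA was taken at day 4, when the p27 OE cells are labelled as not senescent, from 3 libraries per group. Only the titles of EV control add the words dataset 10, and what these mean is not given. The comparison addressed what p27 alone does in cells that have not entered senescence.

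Class I molecules display peptides from inside the cell to CD8 T cells. Proteasomes cut the peptides, the Tap1 and Tap2 transporter carries them into the endoplasmic reticulum, tapasin (Tapbp) and Erap1 help to load and trim them, and a heavy chain with B2m, beta-2-microglobulin, carries them to the surface. In fibroblasts these genes are expressed at a basal level that interferons raise through STAT and IRF factors and through Nlrc5, the class I transactivator. Raet1, H60 and Ulbp1 proteins are ligands of the NKG2D receptor of natural killer cells, and Cd274 encodes PD-L1, the ligand of the inhibitory receptor PD-1.

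Total counts per library ran from 34920728 to 52098220. Cdkn1b stood at 49.9 to 52.2 CPM (counts scaled to a common library size by the TMM method) in EV control, against 419, 978 and 460.0 in p27 OE 1, 2 and 3, so p27 OE 2 held the most. Libraries with the same number in their titles deviated together from their group means, and a fit with that number as a block (the paired fit) is given beside the unpaired one. Within numbers 1, 2 and 3 these deviations correlated at 0.77, 0.42 and 0.54, and crosswise between numbers 2 and 3 at 0.39 and 0.41. The check thus set number 1 apart but hardly separated number 2 from number 3, where the pairing rests on the titles. Whether the libraries of a group came from separate cultures is not in the labels. The p-values here measure the spread among these libraries, and part of that spread may be technical. The libraries numbered 1 stood apart: Xist, which coats the inactive X chromosome, was at 317 and 477 CPM in them and at 0.504 to 9.57 CPM in the other 4. Ddx3y, a Y chromosome gene, was at 0.0556 and 0.0220 CPM in them, against 54.3 to 65.5 CPM in the other 4. By these 2 genes the libraries numbered 1 came from female cells and the other 4 mostly from male cells. The spread within a group was thus not technical alone. All 12 fibroblast markers were tested, with Col1a1 between 22733 and 26723 CPM. In the paired fit Col5a1 rose (0.37 ± 0.06, adjusted p 0.00450), Pdgfra fell (-0.48 ± 0.06, adjusted p 0.000575) and Lum fell (-0.23 ± 0.06, adjusted p 0.0430). By contrast, no lymphocyte or NK marker had enough counts and their summed level stayed under 1 CPM in every library. The 11 macrophage markers in the table summed to 49.7 to 62.2 CPM over the EV control libraries and to 47.5, 84.8 and 61.0 CPM in p27 OE 1, 2 and 3. Of the dendritic cell, endothelial and epithelial markers 2, 3 and 3 were tested, and 0, 1 and 1 rose in the paired fit, while none fell. Over all tested genes 3.80% rose and 3.63% fell in that fit. The marker lists are short, and their counts were not tested against these shares.

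Class I promoters carry short elements for interferon and NF-kB factors, and 300-base stretches of 4 of them (250 bases before the start site, 50 after, from RefSeq on GRCm38.p6) are shown because the results turn on these genes: the main classical heavy chains, their common partner B2m, and Psme1, the one gene that passed the test. Of the 45 genes, 35 had an entry. Capitals mark matches on either strand to the interferon-stimulated response element (GAAA, any 2 bases, GAAA), to TTCNNNGAA, a STAT element, to GAANNGAAA, a looser form of the first, or to GGGATTCCC, the NF-kB element known from class I promoters. Matches of different motifs can overlap, and the last 2 motifs were added after the data were seen. The H2-K1 stretch is chr17:34000298-34000597 on the reverse strand, H2-D1 is chr17:35262844-35263143, B2m is chr2:122147437-122147736 and Psme1 is chr14:55578244-55578543, all 3 on the forward strand.
H2-K1: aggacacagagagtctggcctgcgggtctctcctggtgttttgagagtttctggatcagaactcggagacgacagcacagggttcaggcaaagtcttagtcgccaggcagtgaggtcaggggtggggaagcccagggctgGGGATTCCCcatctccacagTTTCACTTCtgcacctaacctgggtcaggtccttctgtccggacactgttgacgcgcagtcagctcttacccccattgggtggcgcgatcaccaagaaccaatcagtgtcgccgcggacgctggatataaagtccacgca
H2-D1: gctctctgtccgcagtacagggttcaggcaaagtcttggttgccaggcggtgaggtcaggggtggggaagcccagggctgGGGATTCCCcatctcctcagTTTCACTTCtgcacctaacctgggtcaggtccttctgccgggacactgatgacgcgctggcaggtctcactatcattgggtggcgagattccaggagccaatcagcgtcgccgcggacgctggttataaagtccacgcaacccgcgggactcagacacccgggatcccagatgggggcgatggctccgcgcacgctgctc
B2m: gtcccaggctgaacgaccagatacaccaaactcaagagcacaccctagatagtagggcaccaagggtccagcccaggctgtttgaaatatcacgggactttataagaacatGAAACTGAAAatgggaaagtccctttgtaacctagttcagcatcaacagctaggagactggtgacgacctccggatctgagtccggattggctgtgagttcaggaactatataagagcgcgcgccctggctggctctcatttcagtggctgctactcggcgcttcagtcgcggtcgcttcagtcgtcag
Psme1: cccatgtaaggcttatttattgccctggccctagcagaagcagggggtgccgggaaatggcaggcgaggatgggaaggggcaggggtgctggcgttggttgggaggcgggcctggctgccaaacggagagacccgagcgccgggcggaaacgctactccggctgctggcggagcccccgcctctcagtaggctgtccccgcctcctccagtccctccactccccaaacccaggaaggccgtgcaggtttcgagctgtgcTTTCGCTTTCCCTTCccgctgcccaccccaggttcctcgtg

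H2-K1 and H2-D1 shared the GGGATTCCC match and, downstream of it, TTTCACTTC, a reverse-strand match to GAANNGAAA. The first began at -110 in H2-K1 and -170 in H2-D1, and the second at -90 and -150, counted from the start site in transcription direction. B2m had GAAACTGAAA at -139. Psme1 had a reverse-strand match to the same element from 10 to 19 and an overlapping GAANNGAAA match from 16 to 24. These positions count from the RefSeq start sites. The GENCODE M21 annotation begins Psme1 at 55578123 and H2-D1 at 35262730, before the start of both printed stretches. Among all 32851 promoter stretches of this length, 3.44% held the interferon-stimulated response element, 8.30% TTCNNNGAA, 7.52% GAANNGAAA and 0.353% GGGATTCCC. Among the 35 genes with an entry, 5 held the interferon-stimulated response element (B2m, Psme1, Erap1, H2-T23 and H2-T22), 3 TTCNNNGAA, 9 GAANNGAAA and 4 GGGATTCCC (H2-K1, H2-D1, H2-Q6 and H2-Q7). Heavy chain genes arose by duplication, so their matches are not independent. A match describes letters and shows no binding.

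Of the class I and ligand genes, Psme1 alone passed the test in p27 OE, and it fell. In edgeR's paired quasi-likelihood fit, 1 of the 25 tested genes fell, namely this subunit of the PA28 proteasome activator, and 0 rose. Over all 14090 tested genes, 3.63% were called lower (512) and 3.80% higher (535), so 1 of 25, or 4.00%, is near the background. The unpaired edgeR fit called 0 genes in either direction, among the 25 and among all. In it 0 of the 25 had an unadjusted p under 0.05, against 3.20% of all genes higher and 4.02% lower. In the paired fit 5 of the 25 were lower at an unadjusted p under 0.05 (Psme1, Tap1, Tapbp, H2-M3 and Raet1e), against 12.0% of all genes, and 1 was higher (H2-T24), against 11.9%. DESeq2 without pairing called 0 of the 25, against 0.376% of all genes higher and 0.256% lower. DESeq2 with pairing called Psme1 alone, against 3.40% of all genes higher and 2.49% lower. The median log2 fold change of the 25 was -0.06 in the paired fit, against 0.00 for all tested genes.

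Psme1 (chromosome 14, 55578123 to 55581529, forward strand, GRCm38) was at 74.4, 57.5 and 55.9 CPM in EV control 1, 2 and 3, against 54.4, 51.3 and 48.7 in p27 OE 1, 2 and 3. Every p27 OE library was below every EV control library, and EV control 1 was the highest. The paired log2 fold change was -0.27 ± 0.07 (SE, n = 3 pairs; 95% interval -0.42 to -0.13), a ratio of 0.827, with an edgeR adjusted p of 0.0274. The unpaired fit gave -0.28 ± 0.12 with an adjusted p of 0.685. The paired call was lost without the libraries numbered 1 (-0.18, adjusted p 0.0803) or 3 (-0.31, adjusted p 0.0820), and without those numbered 2 it was -0.32 with an adjusted p of 0.00565. Only 14 of the gene's 2209 exon bases overlap another gene, Emc9 on the opposite strand, but 5.47% of its 50-base transcript stretches occur in transcripts elsewhere in the genome. Psme2, the other PA28 subunit of the interferon-induced pair, was at 63.9, 59.9 and 55.9 CPM in EV control, against 56.6, 60.3 and 51.6 in p27 OE. Its groups overlapped, with a paired log2 fold change of -0.09 ± 0.06 (adjusted p 0.383).

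**Figure D1:**
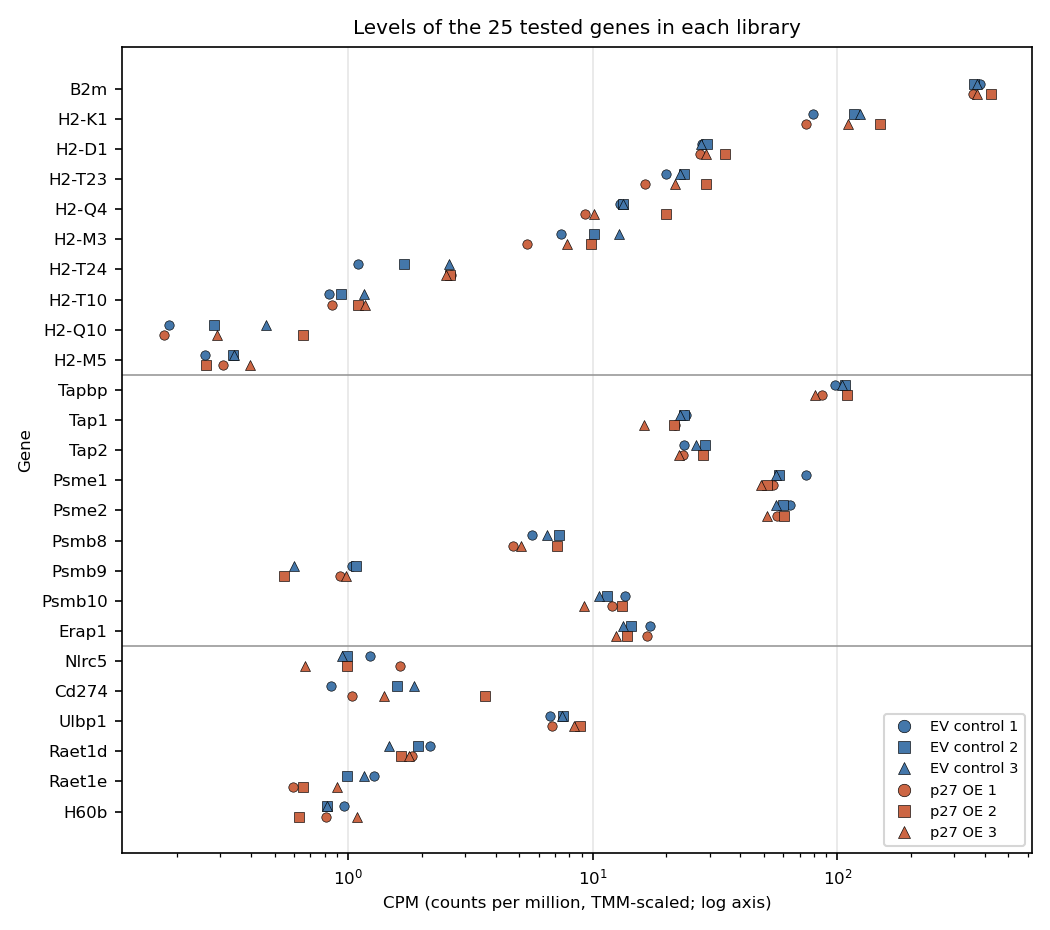
CPM of the 25 tested genes (rows) in each of the 6 libraries on a log axis, with EV control in blue, p27 OE in orange and the marker shape giving the library number. B2m lies between 359 and 423 CPM in every library, and p27 OE 2 is the highest library for H2-K1, H2-D1, H2-T23, H2-Q4 and Cd274.

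The classical heavy chains and B2m were well expressed, and none of the 3 passed the test. Compared per length (CPM per kilobase of merged exons), B2m stood at 432 ± 12.1 in EV control (mean ± SD, n = 3), H2-K1 at 36.2 ± 8.11 and H2-D1 at 11.0 ± 0.309, so B2m was the highest of the 42 genes with an annotated length and H2-K1 the highest heavy chain. B2m was at 381, 361 and 373 CPM in EV control, against 359, 423 and 373 in p27 OE. H2-K1 was at 79.2, 117 and 123 CPM in EV control, against 74.7, 149.8 and 111 in p27 OE. Its libraries numbered 1 were the lowest of both groups, and p27 OE 2 was the highest of the 6. H2-D1 was at 28.0, 29.2 and 27.7 CPM in EV control, against 27.4, 34.8 and 29.1 in p27 OE. The paired log2 fold changes were 0.05 ± 0.06 for B2m, 0.04 ± 0.10 for H2-K1 and 0.10 ± 0.08 for H2-D1, with edgeR adjusted p of 0.710, 0.849 and 0.477. The 95% intervals of the ratio ran from 0.938 to 1.14 for B2m, 0.878 to 1.20 for H2-K1 and 0.956 to 1.20 for H2-D1.

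The 3 numbers did not move alike. In number 2 the p27 OE library was above its control for B2m, H2-K1 and H2-D1 (log2 ratio 0.23, 0.36 and 0.25), whereas in number 1 all 3 were below (-0.09, -0.08 and -0.03), and in number 3 only H2-D1 was above (0.07). The non-classical heavy chains H2-T23, which encodes Qa-1 and presents signal peptides to NK cell receptors, and H2-Q4 showed the same split. H2-T23 was at 20.0, 23.7 and 22.7 CPM in EV control, against 16.4, 29.0 and 21.8 in p27 OE. H2-Q4 was at 13.0, 13.3 and 13.3 CPM in EV control, a narrow range, and at 9.27, 19.9 and 10.2 CPM in p27 OE. For H2-Q4 the p27 OE libraries thus lay on both sides of the controls, and the paired fit gave -0.09 ± 0.24 (adjusted p 0.863). Without the libraries numbered 2 it was -0.43 with an adjusted p of 0.0249, resting on 2 pairs. H2-T23 had a paired log2 fold change of -0.01 ± 0.10 (adjusted p 0.949). Over all 25 tested genes, 6 were higher in p27 OE in number 1, 14 in number 2 and 7 in number 3, against 48.6%, 49.2% and 49.7% of all tested genes. The median log2 ratio of the 25 was -0.15, 0.01 and -0.15 in numbers 1, 2 and 3. In all 3 numbers alike, 7 of the 25 were lower in p27 OE and 2 were higher, against 23.7% and 21.8% of all tested genes.

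p27 OE 2 also stood out in genes around the class I set. Irf1, an interferon-induced activator of class I promoters, chosen after its values were seen, was at 30.2, 22.9 and 22.1 CPM in EV control, against 24.9, 62.1 and 18.4 in p27 OE, so 1 library held it far above the other 5. Its paired log2 fold change was 0.30 ± 0.55 (adjusted p 0.819). The macrophage marker sum was likewise highest there, and Lyz2 made up 53.1 of its 84.8 CPM. Lyz2 differed between the groups by 0.02 ± 0.10 (adjusted p 0.924). Cd14 was at 7.80 CPM against 2.26 to 4.69 CPM in the other 5. Ptprc, the pan-leukocyte marker CD45, was at 0.333, 0.396 and 0.360 CPM in EV control, against 0.593, 1.10 and 0.610 in p27 OE. Cd68 went the other way, at 4.00, 5.60 and 5.93 CPM in EV control, against 3.54, 4.44 and 3.05 in p27 OE (-0.49 ± 0.17, not called). The median paired log2 fold change of the 9 tested macrophage markers was 0.46. Emr1, which encodes the macrophage marker F4/80, rose in the paired fit (0.77 ± 0.20, adjusted p 0.0326, and 0.188 and 0.0658 without the libraries numbered 2 or 3, and 0.0515 in DESeq2 with the block) and was the one macrophage marker of 9 tested that was called. Over all tested genes 3.80% rose in that fit. In bulk RNA, more cells of a type and more RNA per cell cannot be told apart. The promoter factor genes Relb and Nfkb2 were also highest in p27 OE 2, and neither was called. Relb was at 15.1, 16.4 and 14.8 CPM in EV control, against 16.2, 50.2 and 17.4 in p27 OE. Its paired log2 fold change was 0.65 ± 0.46 (adjusted p 0.539). Nfkb2 was at 49.97, 59.7 and 57.6 CPM in EV control, against 53.5, 117 and 54.4 in p27 OE. Its paired value was 0.33 ± 0.30 (adjusted p 0.628). The part of Irf1, of Relb and Nfkb2, of the macrophage markers and of the high Cdkn1b level in the class I values of p27 OE 2 was not tested.

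**Figure D2:**
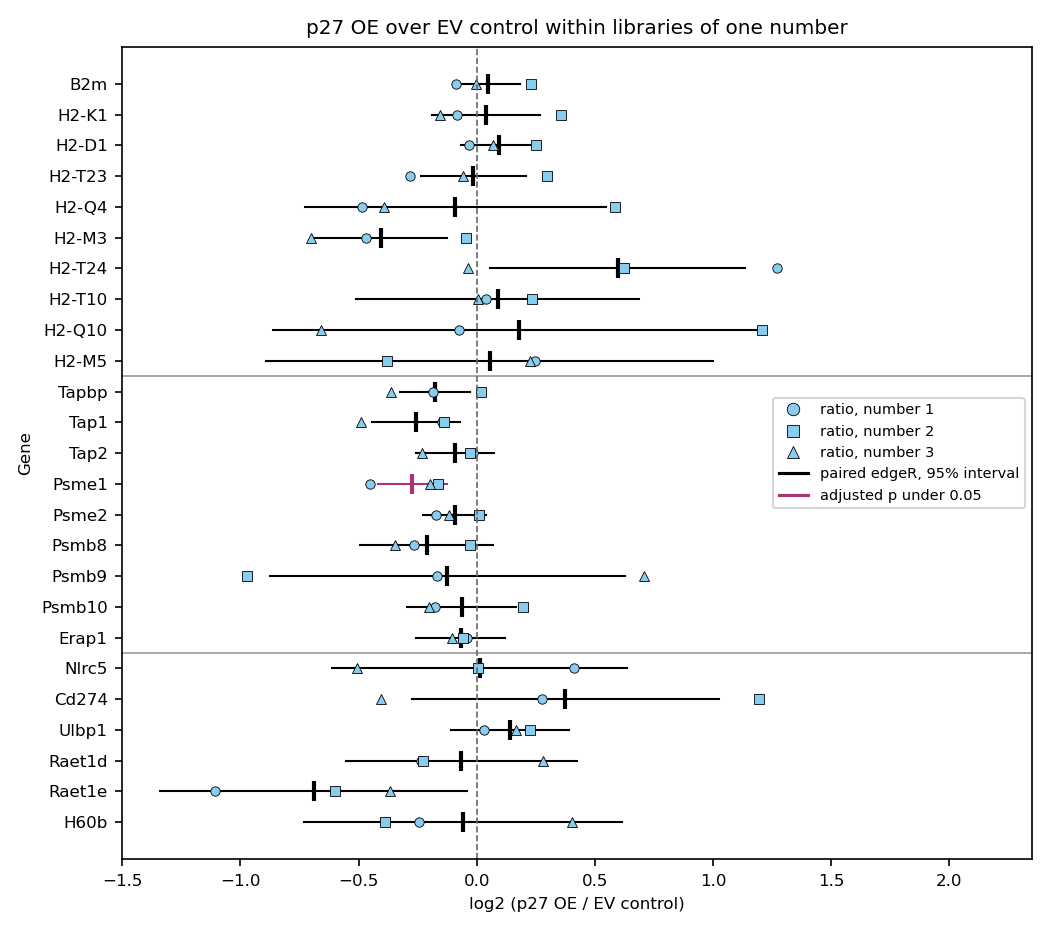
log2 ratio of p27 OE to EV control for the 25 tested genes (rows), within libraries of number 1, 2 and 3 (symbols), with the paired edgeR estimate (tick) and its 95% interval (line). Psme1 is the one gene with an adjusted p under 0.05, and the number 2 ratios of B2m, H2-K1, H2-D1, H2-T23 and H2-Q4 lie to the right of the other 2.

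Among the other non-classical heavy chains tested, H2-M3, which presents formylated peptides, had the lowest paired fold change and missed the threshold. It was at 7.43, 10.1 and 12.7 CPM in EV control, against 5.36, 9.81 and 7.82 in p27 OE. Each p27 OE library was below the control of its number, although the groups overlapped because the libraries numbered 1 were low in both. The paired log2 fold change was -0.41 ± 0.13 (95% interval -0.69 to -0.12, adjusted p 0.0759). It passed without the libraries numbered 2 (-0.59, adjusted p 0.00568) and with no filter on low counts (-0.41, adjusted p 0.0379). H2-T24 was at 1.09, 1.70 and 2.58 CPM in EV control, against 2.64, 2.61 and 2.52 in p27 OE. Its p27 OE libraries lay close together and only EV control 3 reached them, and the paired value was 0.60 ± 0.25 (adjusted p 0.168). H2-T10, H2-Q10 and H2-M5 were low, between 0.176 and 1.17 CPM, with paired values of 0.09 ± 0.28, 0.18 ± 0.48 and 0.06 ± 0.44. Their 95% intervals were wide, for example from -0.51 to 0.69 for H2-T10 and -0.86 to 1.22 for H2-Q10 on the log2 scale.

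The other 20 members, all of them heavy chain genes, did not have enough counts to be tested, and 14 of them had no count in any library. In a single library a count of 0 allows up to 3 counts, or 0.0556 to 0.0848 CPM depending on the library, which covers counting error only. The 14 include H2-Q6, H2-Q7, H2-Q8 and H2-Q9, the Qa-2 genes, as well as H2-T3, H2-T9 and most H2-M genes. The highest of the untested genes was H2-Q5, with counts of 11, 8 and 9 in EV control 1, 2 and 3, against 16, 57 and 5 in p27 OE 1, 2 and 3. As for H2-Q4, p27 OE 2 was the highest library and p27 OE 3 was below its control. H2-Q1 had 7 counts in p27 OE 2 and 0 elsewhere, and H2-Q2 had 2 counts in p27 OE 1, 6 in p27 OE 2 and 0 elsewhere. H2-T22, H2-M10.2 and H2-M9 had at most 11 counts per library.

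Heavy chain genes have near-identical stretches, and the sources used here do not say how reads that match several genes were counted, so the counts of such genes are uncertain. The share of 50-base transcript stretches (GENCODE M21) found also in transcripts elsewhere in the genome was therefore measured for the 42 members in that annotation. It was 36.5% for H2-Q5, 34.97% for H2-Q6, 34.7% for H2-T22, 33.5% for H2-T10 and 26.5% for H2-Q7, and 31.3% of the H2-T22 stretches recurred in H2-T10. H2-Q4 stood at 21.8%, H2-T23 at 14.5%, H2-D1 at 12.8% and H2-K1 at 9.63%. Most of the sequence of the 2 classical genes thus had no exact match elsewhere in that annotation. H2-Q8, H2-Q9 and H2-T9 are not in it, and inexact matches were not counted, so these shares are minimum values. H2-M3 shared 0.576% and B2m none. Low counts were not limited to genes with shared sequence: H2-T3, H2-M1 and H2-M2 shared at most 1.61% and had no count, and H2-M11 shared none and had no count. Outside the heavy chains, Psme2 shared 28.3%, all of it with Psme2b. The kit did not mark strand, so reads of exons that overlap another gene could not be told apart. This touched 1053 of 3628 exon bases of Tapbp, 925 of 3419 of H2-T10 and 834 of 7280 of Erap1. It also touched 698 of 3781 of Tap2, 511 of 3622 of Cd274 and 498 of 3381 of Psmb8. Other overlaps included 496 of 2596 bases of H2-Q4 and 212 of 5476 of Tap1, where the exons of Psmb9 overlap.

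**Figure D3:**
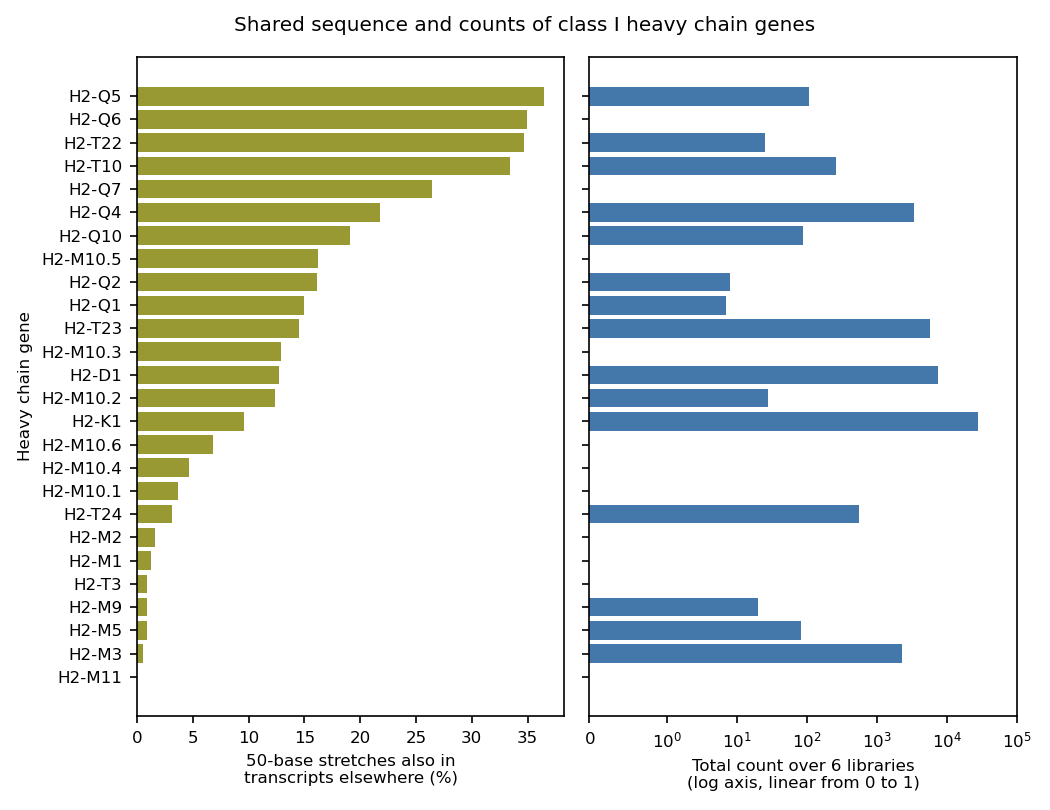
Left, percent of 50-base transcript stretches of each annotated class I heavy chain gene that also occur in transcripts elsewhere in the genome. Right, its total count over the 6 libraries on a log axis that is linear from 0 to 1. H2-Q6 and H2-Q7 share 34.97% and 26.5% and have no counts, while H2-M11, H2-T3 and H2-M1 also have none and share under 2%.

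The genes that supply peptides were mostly lower in p27 OE by small amounts, and beyond Psme1 none of the 9 passed. All 9 were below their control in number 1, while 3 were above it in number 2 and 1 in number 3. Of all 25 tested members 6, 14 and 7 were above it in numbers 1, 2 and 3. Over all tested genes the shares above it were 48.6%, 49.2% and 49.7%. Tap1, a subunit of the peptide transporter, was at 24.1, 23.6 and 22.7 CPM in EV control, against 21.8, 21.4 and 16.2 in p27 OE. Its groups did not overlap, and p27 OE 3 was the lowest. The paired log2 fold change was -0.26 ± 0.09 (95% interval -0.44 to -0.07, adjusted p 0.0895), and it passed without the libraries numbered 1 (-0.31, adjusted p 0.0450). Tap2, the other subunit, was at 23.5, 28.6 and 26.3 CPM in EV control, against 23.3, 28.1 and 22.4 in p27 OE (-0.09 ± 0.08, adjusted p 0.509). Tapbp was at 98.0, 108 and 104 CPM in EV control, against 86.2, 109 and 80.8 in p27 OE. Here p27 OE 2 equalled its control while the other 2 p27 OE libraries were below all controls, and the paired value was -0.18 ± 0.07 (adjusted p 0.138, and 0.0182 without the libraries numbered 2). Erap1, the peptide-trimming aminopeptidase, differed by -0.07 ± 0.09 (adjusted p 0.693), with a range of 12.4 to 17.1 CPM.

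The immunoproteasome subunits Psmb8, Psmb9 and Psmb10, which replace Psmb5, Psmb6 and Psmb7 in interferon-exposed cells, were low in both groups. Per length, Psmb8 was at 1.91 ± 0.239 CPM per kilobase in EV control against 85.8 ± 4.27 for Psmb5, Psmb9 at 0.247 ± 0.0719 against 68.2 ± 2.29 for Psmb6, and Psmb10 at 6.96 ± 0.899 against 36.9 ± 1.25 for Psmb7 (SD, n = 3). In p27 OE the same 3 stood at 1.67 ± 0.385, 0.223 ± 0.0642 and 6.71 ± 1.18 CPM per kilobase. The constitutive subunit was thus the higher one of each couple in every library. Psmb8 was at 5.65, 7.26 and 6.47 CPM in EV control, against 4.70, 7.12 and 5.09 in p27 OE, each p27 OE library below the control of its number. The paired log2 fold changes of Psmb8, Psmb9 and Psmb10 were -0.21 ± 0.13, -0.12 ± 0.35 and -0.06 ± 0.11, with adjusted p of 0.354, 0.867 and 0.771. Nlrc5 itself was at 1.22, 0.989 and 0.941 CPM in EV control, against 1.63, 0.991 and 0.663 in p27 OE, higher than its control in number 1 and lower in number 3 (0.01 ± 0.29, adjusted p 0.987).

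Of the NKG2D ligands, Raet1e had every p27 OE library below every control, at 1.28, 0.989 and 1.16 CPM in EV control and 0.593, 0.652 and 0.901 CPM in p27 OE. The paired log2 fold change was -0.69 ± 0.30 (95% interval -1.34 to -0.04, adjusted p 0.182), and its counts were 25 to 69 per library. With Psme1 and Tap1 it made 3 of 25 tested members whose groups did not overlap with p27 OE lower, and 0 with p27 OE higher. Over all tested genes these shares were 8.28% and 6.61%. Raet1d was at 2.15, 1.92 and 1.46 CPM in EV control, against 1.82, 1.64 and 1.78 in p27 OE (-0.07 ± 0.23, adjusted p 0.895), and H60b ranged from 0.626 to 1.09 CPM (-0.06 ± 0.31, adjusted p 0.933). The annotated Raet1e model spans H60b and Raet1d, and 496 of its 2159 exon bases overlap theirs. Of the transcript stretches measured above, 44.65% of Raet1e, 55.83% of Raet1d and 7.58% of H60b recur in transcripts of an overlapping locus. How reads from such stretches were assigned is not given, so the counts of these genes are uncertain. Ulbp1 was at 6.69, 7.57 and 7.45 CPM in EV control, against 6.83, 8.84 and 8.35 in p27 OE, above its control in each number (0.14 ± 0.12, adjusted p 0.508). It was the highest of the 4 in CPM, but its mean per length was not. Raet1d and Ulbp1 averaged 1.28 ± 0.243 and 1.08 ± 0.0713 CPM per kilobase in EV control (mean ± SD, n = 3). In p27 OE they averaged 1.21 ± 0.0647 and 1.19 ± 0.156. Ulbp1 was above Raet1d per length in EV control 3 and in p27 OE 2 and 3, so their order is not settled.

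Cd274 was at 0.852, 1.58 and 1.86 CPM in EV control, against 1.03, 3.63 and 1.41 in p27 OE. p27 OE 2 was again the highest library, 1.20 above its control on the log2 scale, while number 3 went the other way by -0.41. The paired fit gave 0.38 ± 0.30 (95% interval -0.27 to 1.02, adjusted p 0.489), and without the libraries numbered 2 it gave -0.09. The direction for PD-L1 thus rested on number 2.

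Genes that act with the class I set were read from 5 lists. Genes of interferon signalling were among those that fell: of 35 tested promoter factors and interferon signalling genes, 4 fell and 1 rose in the paired fit, where 3.63% of all tested genes fell and 3.80% rose, and the unpaired fit called none. Those that fell were Stat2, Irf9, Irf7 and Socs3, and Rfx5, a subunit of the factor that binds the X box of class I and class II promoters, rose. Irf9 and Rfx5 were chosen after their values were seen, so the counts of this list do not test it against all genes. Stat2, which carries type I interferon signals to the nucleus, was at 67.7, 68.4 and 61.9 CPM in EV control, against 55.7, 52.7 and 46.6 in p27 OE (-0.35 ± 0.06, adjusted p 0.00410). Every p27 OE library was below every control. Irf9, which acts with Stat2, changed by -0.36 ± 0.07 (adjusted p 0.00746) and Socs3, a feedback inhibitor of cytokine signalling, by -0.44 ± 0.07 (adjusted p 0.00276). Irf7, the interferon-induced activator of type I interferon genes, was at 12.4, 12.0 and 9.25 CPM in EV control, against 5.80, 8.14 and 5.86 in p27 OE (-0.77 ± 0.13, adjusted p 0.00327), again with no overlap. Rfx5 rose from 24.2, 20.7 and 19.3 CPM to 26.8, 28.0 and 25.3 CPM (0.32 ± 0.08, adjusted p 0.0274, and 0.0814 and 0.209 without the libraries numbered 2 or 3). The median of this list was 0.00, as was that of all tested genes.

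Of 18 peptide loading and endoplasmic reticulum genes, 3 rose and none fell, where 3.80% of all tested genes rose and 3.63% fell. The list median was 0.14. Calr, calreticulin, which holds heavy chains during peptide loading, was at 1192, 619 and 609 CPM in EV control, against 1286, 808 and 812 in p27 OE. Its groups overlapped because the libraries numbered 1 were high in both, and it was above its control in each number (0.30 ± 0.07, adjusted p 0.0166). Tpp2, a cytosolic peptidase, rose by 0.25 ± 0.06 (adjusted p 0.0167) and Uggt1, which checks glycoprotein folding, by 0.23 ± 0.06 (adjusted p 0.0430). Without the libraries numbered 3 none of these calls held, with values of 0.25, 0.23 and 0.31 for Calr, Tpp2 and Uggt1 and adjusted p of 0.230, 0.182 and 0.0517. Uggt1 was 0.15 without the libraries numbered 1 (adjusted p 0.0903) and 0.21 with upper-quartile scaling (adjusted p 0.0521). None of 17 constitutive proteasome genes was called (median -0.06). Their 3 smallest p were those of Psmb4 (-0.17 ± 0.05), Psmb1 (-0.17 ± 0.06) and Psma5 (-0.15 ± 0.05), with adjusted p of 0.0731, 0.0874 and 0.0974, and with upper-quartile scaling that of Psmb4 was 0.0430.

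Of 20 tested immune ligands and receptors outside the set, 2 fell and none rose (median -0.05), where 3.63% of all tested genes fell and 3.80% rose. Both, like Cd1d1, encode class I-like molecules that pair with B2m, and Cd1d1 differed by -0.07 ± 0.13 (adjusted p 0.788). Fcgrt, the neonatal Fc receptor, was at 88.5, 79.2 and 78.2 CPM in EV control, against 71.6, 66.0 and 62.1 in p27 OE, every p27 OE library below every control (-0.30 ± 0.06, adjusted p 0.00702, and 0.0806 without the libraries numbered 3). Mr1, which presents vitamin B metabolites to MAIT cells, was at 21.4, 28.9 and 32.6 CPM in EV control, against 16.9, 24.6 and 27.1 in p27 OE. It was below its control in each number (-0.28 ± 0.07, adjusted p 0.0324). The adjusted p was 0.205 without the libraries numbered 3, where the value was -0.29, and 0.0758 in DESeq2 with the block. Pvr, a ligand of the NK receptor DNAM-1, was at 43.5, 112 and 113 CPM in EV control, against 48.6, 168 and 128 in p27 OE (0.31 ± 0.08, adjusted p 0.0556). It passed with the block in DESeq2 (adjusted p 0.0143) and with no filter (adjusted p 0.0325), and was 0.17 without the libraries numbered 2 (adjusted p 0.190). None of the 7 tested class II genes was called, and the class II transactivator gene Ciita had too few counts to be tested. The smallest p in this list belonged to the invariant chain gene Cd74 (0.67 ± 0.29), H2-DMb1 (0.47 ± 0.20) and Ifi30 (-0.13 ± 0.06), with adjusted p of 0.177, 0.178 and 0.206.

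**Figure D4:**
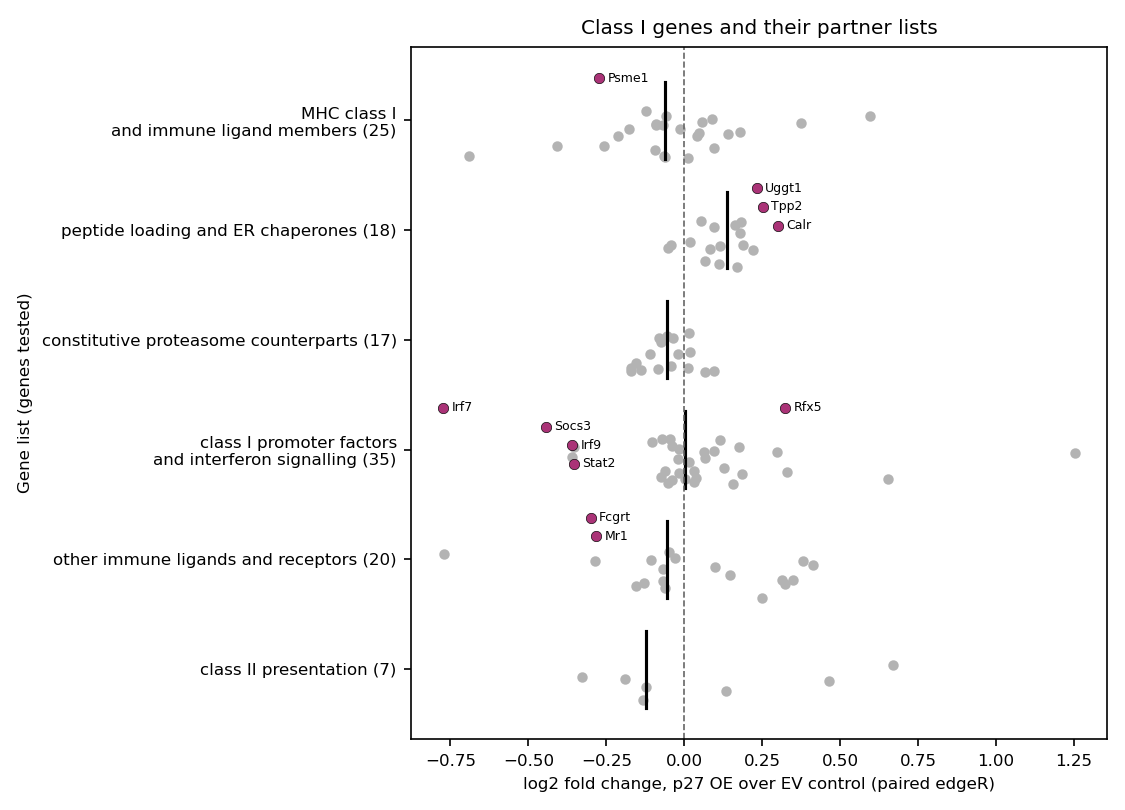
Paired edgeR log2 fold change of each tested gene (points) in the MHC class I and immune ligand set and in the 5 partner lists, with the number tested in brackets, called genes named in purple and the list median as a black line. Psme1 is the one called member, and the interferon signalling list holds 4 called genes to the left and Rfx5 to the right.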

How the data were processed

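RNA of 6 mouse embryonic fibroblast libraries, 3 p27 OE and 3 EV control by their titles, was column-extracted and prepared with the TruSeq RNA kit v2, per the labels' protocols. The authors deposited unnormalized counts per gene symbol. The submitters' processing notes name featureCounts 1.4.6, Subread, TopHat2 2.0.14 and Bowtie2 2.2.6, and the build mm10. Strand setting, gene annotation and treatment of multi-mapping reads: not given in the sources used here.

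filterByExpr, run by group with a count minimum of 10 and a total minimum of 15, kept 14090 genes, which were scaled by TMM and tested with edgeR 4.0.16 in R 4.3.3 (robust quasi-likelihood F test, two-sided, Benjamini-Hochberg over all tested genes, threshold 0.05). The planned fit had no block. The other planned fit used the replicate number as a block, because deviations from the group means (log2 CPM, prior count 2) correlated at 0.77, 0.42 and 0.54 between libraries numbered 1, 2 and 3, though at 0.39 and 0.41 between numbers 2 and 3 crosswise. The pairing comes from the numbers in the titles and this check, which sets number 1 apart but hardly separates numbers 2 and 3. SE came from the F statistic. Replicates differed by more than sampling noise (mean chi-square per gene at least 9.67).

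The genes and the partner and marker lists were chosen with earlier results of these data known. All tested members were named, and from each partner list the 3 smallest p and all called genes where there were 5 or fewer. Other settings were upper-quartile or RLE scaling, all genes kept, a filter of 1 CPM or more in 3 or more libraries, limma-voom 3.58.1, DESeq2 1.42.0, leaving out libraries, and leaving out Cdkn1b. The fits were run on simulated counts in which same-numbered libraries shared a profile, so that run cannot test the pairing. Levels per length used merged exons of GENCODE M21 (GRCm38, the assembly mm10 names), which held 42 of the 45 symbols. Exact permutation of 3 against 3 libraries cannot give a p under 0.1 and was not used. Protein sequences were not used here. 1 gene of the interferon signalling list is not reported here and was left out of that list's counts and median.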

Additional observations from a re-analysis of the deposited data

How the results depend on the processing

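Without pairing, edgeR called 0 members under each setting, and over all genes 1 higher with no filter and 1 higher without p27 OE 2, while DESeq2 called 53 higher and 36 lower. With the replicate block, 535 genes were higher and 512 lower. The block with RLE scaling gave 567 and 475, with upper-quartile scaling 483 and 736, with no filter 689 and 727, with the 1 CPM filter 543 and 475, in DESeq2 479 and 351, in limma-voom 536 and 506, and with Cdkn1b left out 541 and 516. With the block, leaving out the libraries numbered 1, 2 or 3 gave 893, 503 and 224 higher and 848, 425 and 106 lower. Without it, leaving out 1 library gave 0 or 1 higher and 0 lower. With the block, 1 member, Psme1, was lower with all libraries, RLE or upper-quartile scaling, the 1 CPM filter, DESeq2, limma-voom or without Cdkn1b, and 2 members (also H2-M3) with no filter. Leaving out libraries gave 0 to 4 members lower: without the libraries numbered 2 these were Psme1, Tapbp, H2-Q4 and H2-M3, without those numbered 1 Tap1, and without those numbered 3 none. No setting called a member higher.

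Among the members and named list genes, no value that had the opposite sign to the unpaired edgeR fit was called. H2-Q4, called lower without the libraries numbered 2, was 0.11 with the block without those numbered 1. H2-T23, 0.02 in the unpaired edgeR fit, was -0.0210 in limma-voom and -0.00393 with upper-quartile scaling. With the block it was -0.0144, and with the block it was also -0.00821 with RLE scaling, -0.0351 with upper-quartile scaling, -0.0185 with no filter, -0.0105 with the 1 CPM filter, -0.00870 in DESeq2, -0.0104 in limma-voom and -0.0143 without Cdkn1b. Nlrc5 was -0.00855 in limma-voom and, with the block, -0.00803 with upper-quartile scaling and -0.00448 in DESeq2. Leaving out libraries, with or without the block, moved B2m from -0.0404 to 0.11, H2-K1 from -0.19 to 0.29, H2-T23 from -0.21 to 0.20, H2-Q4 from -0.44 to 0.19, H2-Q10 from -0.41 to 0.68, H2-T10 from -0.0182 to 0.24 and H2-M5 from -0.13 to 0.24. It moved Psmb9 from -0.53 to 0.24, Psmb10 from -0.18 to 0.0799, Erap1 from -0.19 to 0.0464, Nlrc5 from -0.35 to 0.32, Cd274 from -0.23 to 0.82, Raet1d from -0.23 to 0.0518, H60b from -0.31 to 0.13 and Pvr from -0.0131 to 0.73. The cause of these shifts was not tested. Where an unpaired fit left out 1 library, 2 libraries stood against 3, and blocked fits without a number rested on 2 pairs. Depth limits the low genes: members at 8 to 25 counts per library, such as H2-Q10 and H2-M5, had 95% intervals wider than 1.5 on the log2 scale.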
